A study of Saccharomyces cerevisiae with 12 samples.

Results

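The hexose transporters of baker's yeast are plasma membrane proteins that carry glucose, fructose and mannose into the cell by facilitated diffusion. Of this family, 10 genes (HXT1, HXT2, HXT3, HXT4, HXT5, HXT6, HXT7, HXT8, HXT10 and HXT14) each had a probe set that the platform annotation assigns to that gene alone, among 5656 genes with such a probe set. After the filter on dim genes 9 of the 10 remained among the 5400 genes tested, and HXT10 did not. The rule takes members by name and annotation and uses no threshold on signals, and probe sets assigned to several transporter genes were kept apart.

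The family works in parts. Low affinity carriers such as Hxt1 and Hxt3 serve at high glucose, high affinity carriers such as Hxt2, Hxt4, Hxt6 and Hxt7 serve when glucose is scarce, and Hxt5 has an intermediate affinity and is known from slowly growing and starved cells. Transcription of several HXT genes is held down by the repressor Rgt1 with its partners Mth1 and Std1, and the membrane glucose sensors Snf3 and Rgt2 lead to the breakdown of these partners when glucose is present. The repressor Mig1, which acts at high glucose, holds down several of the high affinity genes.

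Transcripts were measured on 12 Affymetrix arrays from anaerobic cultures of Saccharomyces cerevisiae CEN.PK113-7D, a prototrophic haploid reference strain of mating type a, and the labels name no engineered allele. All cultures were chemostats at pH 5 and a dilution rate of 0.03 per h, so that growth rate was fixed, and carbon or nitrogen was the limiting nutrient. Each limitation was run at 12 °C and at 30 °C. Each of the 4 groups has 3 arrays from independent cultures. Signals are linear array intensities brought to one overall level by the submitters, and values at or under a floor of 12 units are treated as not measurable.

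Median signals ranged from 41.2 to 51.4 over the arrays, with 22.1% to 26.7% of probe sets under the floor. Correlations of log2 signal across genes, which are not independent replicates, were 0.952 to 0.986 within groups and 0.864 to 0.972 between groups. Signals of the 9 spike-in control probe sets averaged 317 ± 33.4 (SD, n = 3) in the carbon-limited group at 30 °C and 519 ± 68.8, 531 ± 205 and 522 ± 46.4 in the carbon-limited group at 12 °C and the nitrogen-limited groups at 12 and 30 °C; their part in the results was not tested. All 7 a-cell markers lay over the floor on every array, with sums of 7712 to 15465, carried by the pheromone genes MFA1 and MFA2. Among them ASG7 was 3.96-fold and 5.91-fold higher at 12 °C under carbon and nitrogen limitation (adjusted p = 3.68e-06 and 1.71e-07), and STE2 and AGA2 were higher at 12 °C under nitrogen limitation (adjusted p = 0.0231 and 0.00765). MFA1, MFA2, STE6 and BAR1 did not pass in the cold under either limitation (log2 differences -0.41 to 0.06). Nor did STE2 and AGA2 under carbon limitation (-0.01 and -0.15). Sums of 4 alpha-cell markers, of which 3 lay over the floor on every array, were 1413 to 1880 (carbon) and 2387 to 3395 (nitrogen) at 12 °C against 360.1 to 540.0 and 361 to 517 at 30 °C. The alpha-factor gene MF(ALPHA)1 carried these sums and was 4.58-fold and 9.12-fold higher at 12 °C (adjusted p = 2.3e-05 and 2.91e-07). All 4 alpha-cell markers rose in the cold under nitrogen limitation, and 2 of 4 under carbon limitation, where STE3 and SAG1 did not pass (adjusted p = 0.0739 and 0.264). The part of these mating genes in the results was not tested. Since values are relative to the whole array, fewer cells of a kind and less RNA per cell cannot be told apart.

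Among the low affinity carriers, HXT3 was read at 255.5, 202 and 231 units in the 3 carbon-limited cultures at 30 °C and at 563, 974.5 and 983 at 12 °C. Nitrogen-limited cultures gave 2340.4, 2296 and 2298 at 30 °C and 3235, 3468 and 2605 at 12 °C. The groups were thus ordered carbon 30 °C, carbon 12 °C, nitrogen 30 °C, nitrogen 12 °C, and no neighbours in that order overlapped. Under carbon limitation HXT3 was 3.56-fold higher at 12 °C (log2 difference 1.83 ± 0.20 SE, n = 3 against 3, limma adjusted p = 5.85e-06). Under nitrogen limitation the difference of 0.41 (95% interval -0.00 to 0.83) had an adjusted p of 0.107 and did not pass, although the arrays did not overlap. It passed after median scaling (0.63, adjusted p = 0.035) and without replicate 1 of the carbon-limited cultures at 12 °C (0.41, adjusted p = 0.0372). Nitrogen-limited cultures had 10.1-fold more HXT3 signal than carbon-limited ones at 30 °C (adjusted p = 6.45e-09) and 3.78-fold more at 12 °C (adjusted p = 3.86e-05). The 12 °C difference did not pass when only the 6 arrays of that comparison were fitted (adjusted p = 0.0961).

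HXT1, the other low affinity carrier, was dim. Its signals in carbon-limited cultures were 7.3, 8.7 and 6.7 at 30 °C, all under the floor, and 11.6, 13.8 and 26.0 at 12 °C. Nitrogen-limited cultures gave 71.3, 54.6 and 65.7 at 30 °C and 30.8, 43.4 and 26.9 at 12 °C, so that every nitrogen-limited array stood above every carbon-limited one. At 30 °C HXT1 was at least 5.29-fold higher under nitrogen limitation (adjusted p = 7.34e-06), and at 12 °C 2.03-fold higher (1.02, adjusted p = 0.0344). The call at 12 °C was lost in 10 of 23 alternative settings. Among these were the fits without replicate 1 or 2 of the carbon-limited cultures at 12 °C (adjusted p = 0.104 and 0.0996), without replicate 1, 2 or 3 of those at 30 °C (0.0536, 0.0518 and 0.0554), and without replicate 2 of the nitrogen-limited cultures at 12 °C (0.123) or replicate 3 of those at 30 °C (0.0512). Cold lowered HXT1 1.92-fold under nitrogen limitation (-0.94 ± 0.26, adjusted p = 0.00994). Under carbon limitation the difference of 0.44 (95% interval -0.12 to 0.99, adjusted p = 0.233) did not pass with the floor, and passed on log2(signal + 1) without it (1.01, adjusted p = 0.0143). The difference in response between HXT1 and HXT3 was not tested.

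**Figure D1:**
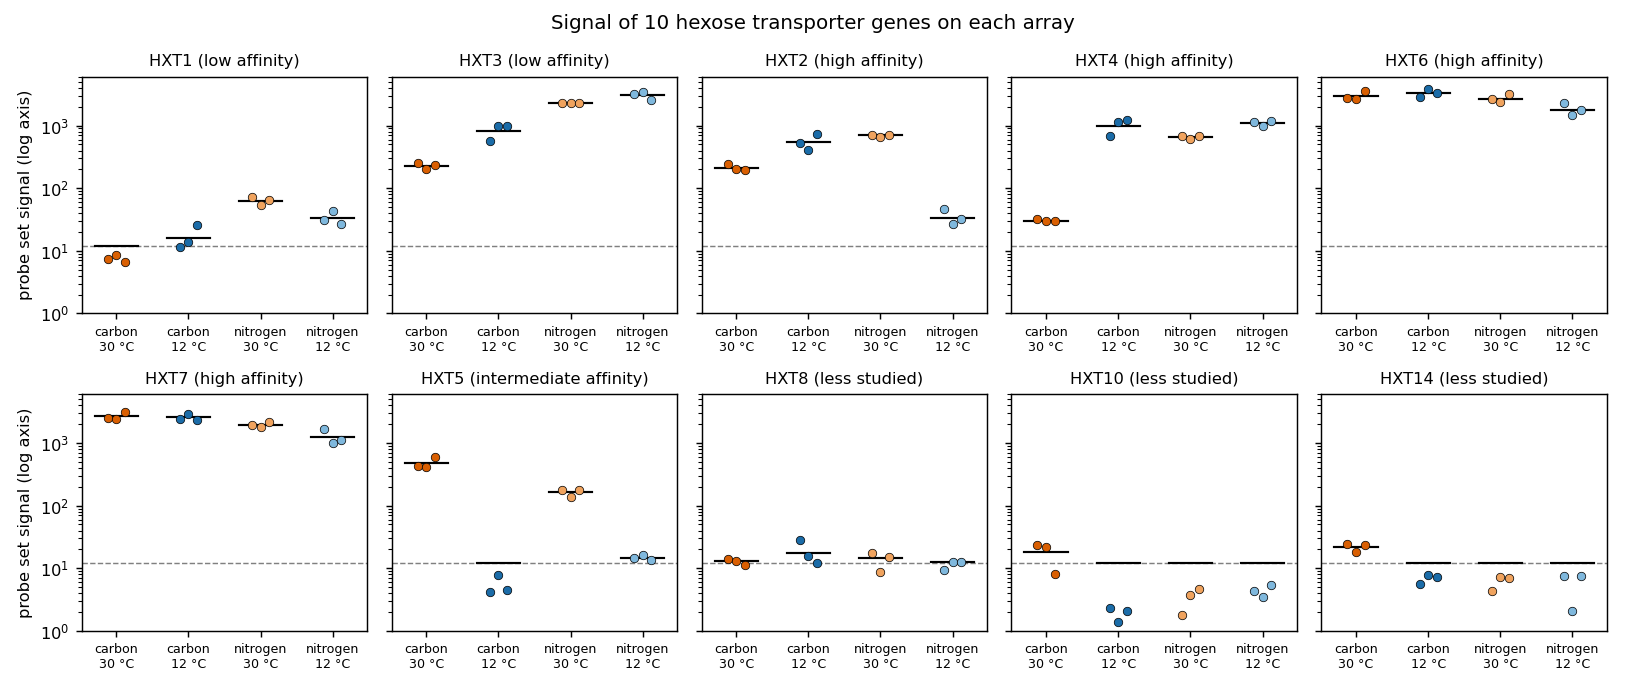
Signal of each hexose transporter gene on every array (log axis, array units) by group; each point is 1 culture, black bars are group means on the log scale after raising signals under the floor to it, and the dashed line is the floor of 12. HXT4 is low only in the carbon-limited group at 30 °C (29.4 to 32.6), HXT2 only in the nitrogen-limited group at 12 °C (26.6 to 46.7), and HXT5 is higher at 30 °C than at 12 °C under both limitations.

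The high affinity carriers did not move as a block. HXT4 read 32.6, 29.5 and 29.4 in carbon-limited cultures at 30 °C and 690.2, 1148 and 1228 at 12 °C. Nitrogen-limited cultures read 684, 615 and 679 at 30 °C and 1149, 990.3 and 1202 at 12 °C. A single group, carbon limitation at 30 °C, was thus low, and the 2 groups at 12 °C overlapped. The rise with cold under carbon limitation was 32.5-fold (5.02 ± 0.20, adjusted p = 5.75e-11), against 1.69-fold under nitrogen limitation (0.75, adjusted p = 0.00667). Nitrogen-limited cultures exceeded carbon-limited ones 21.6-fold at 30 °C (adjusted p = 2.93e-10), whereas at 12 °C the difference was 0.16 (95% interval -0.25 to 0.58, adjusted p = 0.668).

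HXT2 responded to cold in opposite directions. Carbon-limited cultures gave 246, 204 and 192 at 30 °C and 537, 408 and 726.5 at 12 °C, a 2.55-fold rise (1.35 ± 0.23, adjusted p = 0.000479). Nitrogen-limited cultures gave 703, 669 and 716 at 30 °C and 46.7, 26.6 and 31.7 at 12 °C, a 20.5-fold fall (-4.35 ± 0.23, adjusted p = 1.27e-09). The highest groups, nitrogen limitation at 30 °C and carbon limitation at 12 °C, overlapped, and nitrogen limitation at 12 °C lay below all others. The direction of the limitation effect therefore turned with temperature: HXT2 was 3.27-fold higher under nitrogen limitation at 30 °C (1.71, adjusted p = 5.98e-05) and 15.9-fold lower at 12 °C (-3.99, adjusted p = 5.18e-08).

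HXT6 and HXT7 are neighbouring, nearly identical genes, and their probe sets may each read both transcripts. Their profiles over the 12 arrays, each centred on its mean, differed by a root mean square of 0.165 log2 units, and they do not count as independent members. HXT6 gave 2807, 2692.5 and 3585 in carbon-limited cultures at 30 °C and 2819, 3844 and 3290.3 at 12 °C. Nitrogen-limited cultures gave 2638, 2343 and 3192 at 30 °C and 2324, 1459 and 1746 at 12 °C. The first 3 of these groups overlapped, and nitrogen limitation at 12 °C lay below them. HXT7 gave 2539, 2441 and 3110.4 and then 2461, 2951 and 2367 under carbon limitation at 30 and 12 °C. Under nitrogen limitation it gave 1943, 1800.2 and 2166.5 at 30 °C and 1691, 1002 and 1113 at 12 °C, again with the cold nitrogen-limited cultures lowest.

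For this pair no temperature effect passed under carbon limitation (HXT6 0.13, 95% interval -0.27 to 0.53, adjusted p = 0.646; HXT7 -0.06, adjusted p = 0.862). Under nitrogen limitation both were lower at 12 °C, by -0.58 ± 0.19 for HXT6 (adjusted p = 0.0237) and -0.67 for HXT7 (adjusted p = 0.00952). Both calls were lost after median scaling (-0.37, adjusted p = 0.186, and -0.46, adjusted p = 0.0966). The HXT6 call was also lost without replicate 2 or 3 of the cold nitrogen-limited cultures (adjusted p = 0.0944 and 0.0579) and without replicate 1 or 3 of the warm ones (0.0567 and 0.111). Between limitations at 12 °C, HXT6 was lower under nitrogen limitation by -0.86 (adjusted p = 0.0183) and HXT7 by -1.06, or 2.09-fold (adjusted p = 0.00406). That HXT6 call did not pass without replicate 2 or 3 of the cold carbon-limited cultures (0.0591 and 0.0511) or replicate 2 of the cold nitrogen-limited ones (0.0639), and both calls were lost when only the 6 arrays compared were fitted (0.217 and 0.179). At 30 °C neither difference passed (HXT6 -0.15, adjusted p = 0.585; HXT7 -0.45, adjusted p = 0.0816), and that of HXT7 passed in 4 settings: without replicate 1 of the cold nitrogen-limited cultures (adjusted p = 0.0292), with only the 6 arrays compared (0.0296), after quantile normalisation (0.0377) and with array weights (0.00736).

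HXT5, the carrier of intermediate affinity, fell in the cold under both limitations. Carbon-limited cultures gave 429.5, 420 and 605 at 30 °C and 4.1, 7.7 and 4.5 at 12 °C, the latter all under the floor. Nitrogen-limited cultures gave 178, 136 and 180.5 at 30 °C and 14.8, 16.0 and 13.3 at 12 °C. Every array at 30 °C lay above every array at 12 °C. The fall in the cold was at least 39.8-fold under carbon limitation (adjusted p = 5.75e-11) and 11.1-fold under nitrogen limitation (-3.48, adjusted p = 7.59e-09). At 30 °C HXT5 was 2.93-fold lower under nitrogen limitation (-1.55, adjusted p = 6.73e-05). At 12 °C, where the carbon-limited side has only an upper bound, the difference of 0.29 did not pass (adjusted p = 0.437), and it passed on log2(signal + 1) without the floor (1.32, adjusted p = 0.00378).

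The less studied members were dim. HXT14 gave 24.1, 18.4 and 23.6 in carbon-limited cultures at 30 °C and 2.1 to 7.7 on the other 9 arrays, all under the floor. It passed the filter through that single group, so that a difference was bound to appear, and its at least 1.82-fold lower signal in the cold (adjusted p = 0.000376) and under nitrogen limitation at 30 °C (adjusted p = 0.000391) is given as a description. HXT10 exceeded the floor on 2 arrays, also of the carbon-limited group at 30 °C, where it gave 23.9, 21.8 and 8.0, against 1.4 to 5.4 elsewhere, and was not tested. HXT8 lay between 8.8 and 27.9 on all arrays and passed in none of the 4 comparisons between groups (adjusted p = 0.204 to 0.598). Without replicate 3 of the carbon-limited cultures at 12 °C its difference in the cold under carbon limitation was 0.69 and passed (adjusted p = 0.0482).

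Further transporters of the family are read only by probe sets that the annotation assigns to several genes, which were not tested. The probe set for HXT13, HXT15, HXT16 and HXT17 gave 445.5, 305 and 261 in carbon-limited cultures at 30 °C, 23.9 to 38.9 in carbon-limited cultures at 12 °C, and 27.1 to 30.9 and 19.2 to 30.3 in nitrogen-limited cultures at 12 and 30 °C. HXT10 and HXT14 were also highest in that group, but which of its 4 genes gave the signal cannot be read from it. One probe set for HXT9 and HXT11, transporters also linked to drug resistance, was under the floor in that group (5.2 to 10.2) and at 15 to 31.4 in all others. Its second probe set exceeded the floor on 2 arrays, with a highest value of 15.9. HXT12 is not analysed here.

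**Figure D2:**
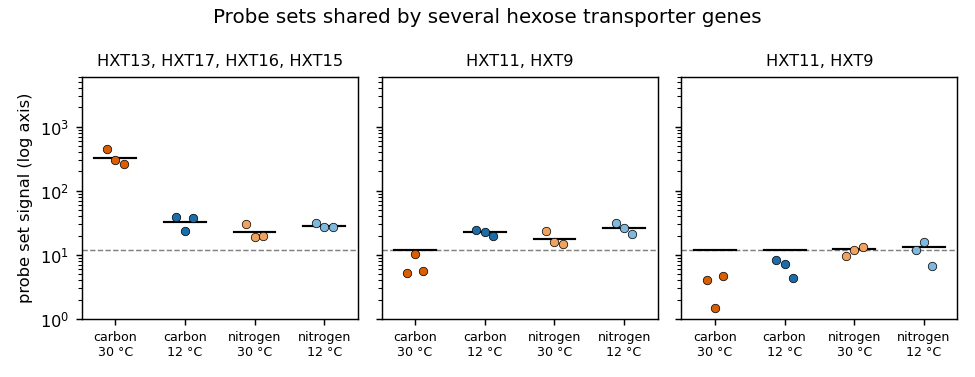
Signal (log axis, array units) of the probe sets that the annotation assigns to more than 1 HXT gene, on every array by group; black bars are group means on the log scale after raising signals under the floor to it, and the dashed line is the floor of 12. The probe set shared by HXT13, HXT15, HXT16 and HXT17 reads 261 to 445.5 in carbon-limited cultures at 30 °C and 38.9 or less in the other groups.

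Counts are set beside all genes for the 8 tested members other than HXT14, whose calls follow from the filter. HXT6 and HXT7 each enter these counts, shares and medians, here and below, although they are not independent. With cold under carbon limitation 3 of these 8 rose (HXT2, HXT3, HXT4) and 1 fell (HXT5), where 13.1% of all tested genes rose and 12.6% fell. The arrays of the 2 groups did not overlap for 4 of 8 members and for 42.7% of all genes, a share too close to the background to be a result about the members. The median log2 difference was 0.43 for the members and 0.03 for all genes. By affinity, 2 of 4 high affinity members rose (HXT2, HXT4), as did 1 of 2 low affinity members (HXT3), and none of these fell.

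Under nitrogen limitation 1 of 8 members rose in the cold (HXT4) and 5 fell (HXT1, HXT2, HXT5, HXT6, HXT7), where 15.9% of all genes rose and 22.3% fell. Arrays did not overlap for 7 of 8 members and for 48.9% of all genes. The median difference was -0.62 for the members and -0.10 for all genes. Median scaling moved the median of all genes to 0.10 and the split of all calls from 857 higher and 1206 lower to 1308 and 807, and quantile normalisation gave 1069 and 929. With median scaling 2 members rose and 3 fell (HXT1, HXT2, HXT5). Of the high affinity members 1 of 4 rose and 3 of 4 fell, 2 of these being the inseparable pair HXT6 and HXT7, and of the low affinity members 1 of 2 fell.

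**Figure D3:**
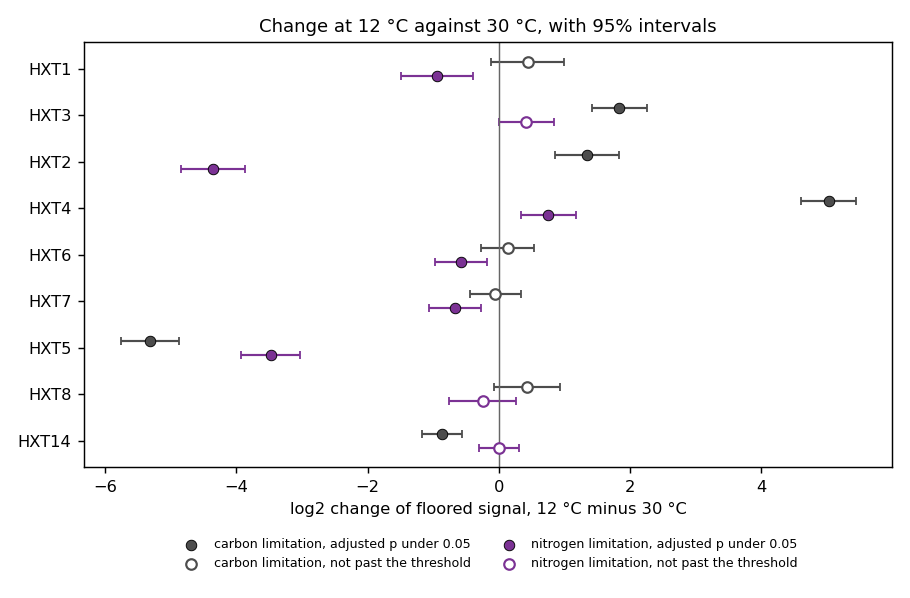
Log2 difference of signal, 12 °C minus 30 °C, for the 9 tested members under carbon and under nitrogen limitation; whiskers are 95% intervals from limma, and open circles did not pass an adjusted p of 0.05. HXT2 lies at 1.35 under carbon and -4.35 under nitrogen limitation, HXT4 at 5.02 and 0.75, and HXT5 is below 0 under both. The call of HXT14 under carbon limitation follows from the filter, and under nitrogen limitation both of its groups were wholly under the floor.

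The comparisons of nitrogen with carbon limitation use the same 12 arrays as the temperature comparisons, so that their values are not separate evidence. At 30 °C, 4 of 8 members were higher under nitrogen limitation (HXT1, HXT2, HXT3, HXT4) and 1 was lower (HXT5), where 14.3% of all genes were higher and 12.6% lower. Arrays did not overlap for 6 of 8 members, against 50.9% of all genes, and the median was 0.95 for members and 0.04 for all genes. Both low affinity members and 2 of 4 high affinity members were among the higher ones.

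At 12 °C, calls were rarer over all genes, with 1.81% higher and 3.85% lower under nitrogen limitation. Of the 8 members 2 were higher, both of them low affinity carriers (HXT1, HXT3), and 3 were lower, all of them high affinity carriers (HXT2, and HXT6 and HXT7, which cannot be told apart). Their arrays did not overlap for 6 of 8 members and for 21.1% of all genes. The median was -0.16 for members and -0.05 for all genes. With only the 6 arrays of this comparison fitted, 1 member (HXT2) and 4 genes overall passed.

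**Figure D4:**
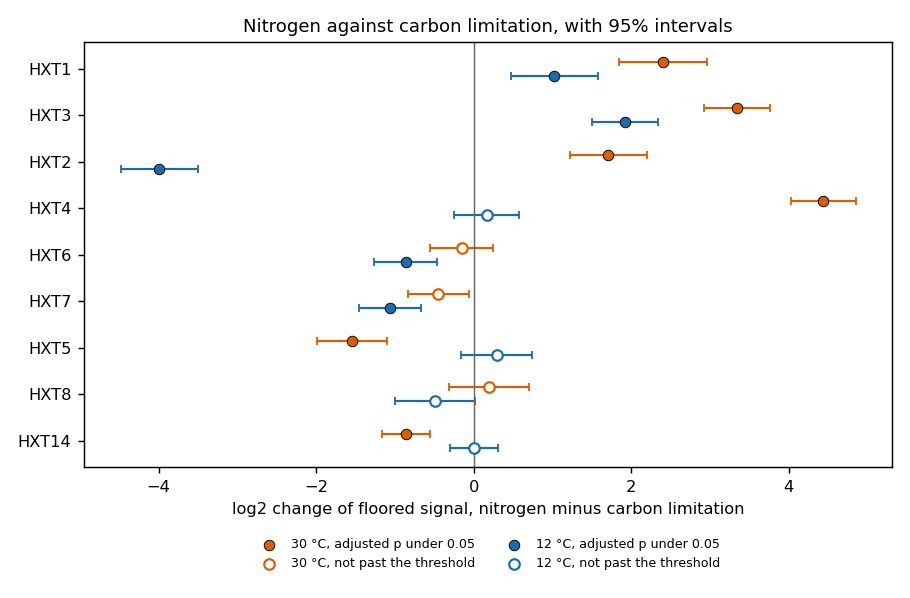
Log2 difference of signal, nitrogen minus carbon limitation, for the 9 tested members at 30 °C and at 12 °C; whiskers are 95% intervals from limma, and open circles did not pass an adjusted p of 0.05. HXT2 changes sign between 30 °C (1.71) and 12 °C (-3.99), and HXT4 goes from 4.44 at 30 °C to 0.16 at 12 °C. The call of HXT14 at 30 °C follows from the filter, and at 12 °C both of its groups were wholly under the floor.

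Whether cold acted differently under the 2 limitations was tested as the temperature effect under nitrogen minus that under carbon limitation. This difference passed for 5 of 8 members, positive in 1 and negative in 4, where 2.91% of all genes were positive and 4.54% negative. It was -5.70 ± 0.32 for HXT2 (adjusted p = 1.49e-08), -4.27 ± 0.28 for HXT4 (adjusted p = 7.44e-08) and -1.42 ± 0.28 for HXT3 (adjusted p = 0.00557). HXT1 had -1.38 ± 0.37 (adjusted p = 0.0312), which was lost in 11 of 22 alternative settings. Among these were the fits without replicate 3 of the carbon-limited cultures at 12 °C (0.0559), without replicate 1, 2 or 3 of those at 30 °C (0.0719, 0.0731 and 0.0648), without replicate 3 of the nitrogen-limited cultures at 12 °C (0.0685), and without replicate 1 or 3 of those at 30 °C (0.0827 and 0.0642). HXT5 had 1.84 ± 0.30 (adjusted p = 0.00122), where the fall under carbon limitation is itself a bound. For HXT14, left out of the count, it was 0.87 (adjusted p = 0.0158), with 3 of 4 groups at the floor, and 1.33 (adjusted p = 0.134) on log2(signal + 1). HXT6 (-0.71, adjusted p = 0.118) and HXT7 (-0.61, adjusted p = 0.169) did not pass, and both passed without replicate 1 of the nitrogen-limited cultures at 12 °C (adjusted p = 0.039 and 0.0274). The median was -1.05 for members and -0.10 for all genes.

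Genes outside the family were ranked by how little their profile over the 12 arrays differed from that of a member, as a root mean square of log2 values after each profile was centred on its mean. HXT3 was nearest to MIG2, a glucose repressor related to Mig1 (0.34), and PDC5, a pyruvate decarboxylase (0.39), followed by WSC4 (0.69). Signals of MIG2 were 7.9 to 10.6, all under the floor, and 16.6 to 49.5 under carbon limitation at 30 and 12 °C and 82.1 to 124 and 75.1 to 143 under nitrogen limitation. HXT5 was nearest to the heat shock genes HSP30 (0.59) and HSP26 (0.67) and to COX26 (0.67). At 12 °C HXT5 lay under the floor on 3 carbon-limited arrays and near it under nitrogen limitation (13.3 to 16.0), which limits its likeness. HXT1 was nearest to KCC4, a bud neck kinase (0.34), PRM7 (0.34) and DAL7, a malate synthase (0.38), against its own spread of 0.98. Signals of HXT1 were at or under the floor on 3 carbon-limited arrays at 30 °C and 1 at 12 °C, which limits this likeness. HXT6 was nearest to CDC4, a ubiquitin ligase subunit (0.14), APT2 (0.19) and UBS1 (0.21), and HXT7 to APT2 (0.22), CDC4 (0.22) and RMD5 (0.24), with spreads of their own profiles of 0.39 and 0.49. For HXT4 the nearest were YGR035C (1.00) and STD1, a partner of Rgt1 (1.04), and MEP3, an ammonium permease (1.25), against a spread of its own profile of 2.14. HXT2 had no gene nearer than ATG39, a receptor for autophagy of the nucleus (1.07), then TSL1, a trehalose synthase subunit (1.11), and LEE1 (1.13), against its own spread of 1.73. HXT8 (nearest SNU114, 0.20) and HXT14 (nearest YGR273C, 0.12) lay mostly near or under the floor, where likeness says little. Within the family HXT1 and HXT3 differed by 0.86 and HXT3 and HXT4 by 1.16.

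Several members are neighbours in the genome. In the R64 gene table HXT4, AHT1, HXT1 and HXT5 follow each other on chromosome VIII between MSR1 and PAL2, and HXT7, HXT6, YDR344C and HXT3 on chromosome IV between YDR341C and SVF1. On chromosome VIII, HXT4 rose and HXT5 fell in the cold under carbon limitation, 32.5-fold up and at least 39.8-fold down, while MSR1, a mitochondrial arginyl-tRNA synthetase, fell by 0.58 on the log2 scale (adjusted p = 0.0291) and the difference of PAL2 did not pass (-0.42, adjusted p = 0.153). Under nitrogen limitation HXT1, HXT5 and PAL2 fell in the cold (PAL2 2.67-fold, adjusted p = 8.9e-05), HXT4 rose, and MSR1 did not pass (0.23, adjusted p = 0.348). On chromosome IV, HXT3 rose with cold under carbon limitation where HXT6, HXT7, YDR341C (0.16, adjusted p = 0.463) and SVF1 (0.16, adjusted p = 0.611) did not pass. ANY1, the neighbour of HXT2 on chromosome XIII, rose with cold under both limitations (1.32, adjusted p = 0.00124, and 0.75, adjusted p = 0.0285), where HXT2 rose in one and fell in the other.

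Among 37 other genes of glucose transport, sensing, repression and hexose phosphorylation, 28 were tested. In the cold 4 rose and 5 fell under carbon limitation, where 13.1% and 12.6% of all genes did. Under nitrogen limitation 2 rose and 12 fell, beside 15.9% and 22.3% of all genes. Between limitations 6 were higher and 6 lower under nitrogen limitation at 30 °C (all genes 14.3% and 12.6%), and 1 was higher and 4 lower at 12 °C (1.81% and 3.85%). Their median differences were -0.12, -0.49, 0.12 and -0.24 in these comparisons, beside 0.03, -0.10, 0.04 and -0.05 for all genes. With median scaling the count under nitrogen limitation in the cold was 8 in place of 14.

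The difference in temperature effect between limitations passed for 1 of these 28 genes, STD1 (-2.53 ± 0.33, adjusted p = 0.000186). It was positive in 2.91% of all genes and negative in 4.54%, so that this count is not above the background. STD1 read 31.7, 33.0 and 28.7 in carbon-limited cultures at 30 °C and 143, 194.5 and 229 at 12 °C. Nitrogen-limited cultures read 189, 191 and 191 at 30 °C and 135.5, 219 and 256 at 12 °C. As for HXT4, carbon limitation at 30 °C alone was low. The other 3 groups overlapped for STD1, whereas for HXT4 nitrogen limitation at 30 °C (615 to 684) lay below both groups at 12 °C (690.2 or more). The rise with cold under carbon limitation was 5.97-fold (2.58, adjusted p = 1.07e-06), nitrogen-limited cultures were 6.13-fold higher at 30 °C (2.62, adjusted p = 9.5e-07), and the cold effect under nitrogen limitation of 0.05 did not pass.

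MTH1, the paralogue of STD1, fell 2.72-fold in the cold under nitrogen limitation (-1.44, adjusted p = 0.000224), from 278, 297 and 322 to 110.2, 101 and 118.5, and its change under carbon limitation of -0.62 did not pass. RGT1, the repressor itself, was 2.55-fold higher under nitrogen limitation at 30 °C (1.35, adjusted p = 0.000918), with 130.5, 115 and 68.5 against 45.0, 36.5 and 38.0. It fell by 0.87 on the log2 scale in the cold under nitrogen limitation (adjusted p = 0.0112), which did not pass without replicate 1 or 2 of the warm nitrogen-limited cultures (adjusted p = 0.0649 and 0.0527). SNF3, the sensor of low glucose, was lower in the cold under carbon limitation (-0.86, adjusted p = 0.00985, but 0.0688 on log2(signal + 1)) and lower under nitrogen limitation at 30 °C (-0.94, adjusted p = 0.0052). RGT2, the sensor of high glucose, was 1.49-fold higher under nitrogen limitation at 30 °C (adjusted p = 0.0397), a call lost on leaving out any 1 of the 6 arrays compared (adjusted p = 0.0609 to 0.156). YCK2, a casein kinase of the sensor pathway, was lower under nitrogen limitation at 30 °C (-0.61, adjusted p = 0.0258), which did not pass without carbon-limited replicate 1 or 2 (0.0594 and 0.117) or nitrogen-limited replicate 2 or 3 (0.0965 and 0.0647) of that temperature. Of the 8 genes of sensing and induction, 1 rose and 1 fell in the cold under carbon limitation, where 13.1% and 12.6% of all genes did, and 0 rose and 5 fell under nitrogen limitation, where 15.9% and 22.3% did.

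**Figure D5:**
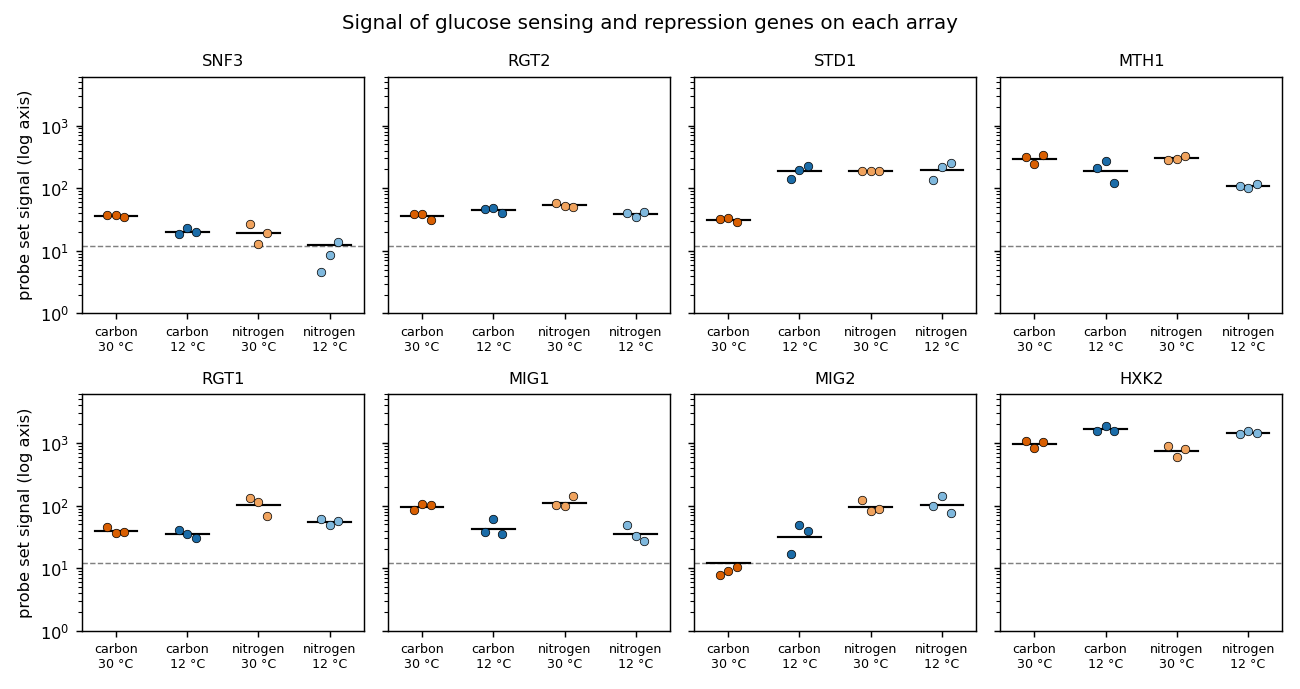
Signal (log axis, array units) of genes that act in glucose sensing, repression and phosphorylation, on every array by group; black bars are group means on the log scale after raising signals under the floor to it, and the dashed line is the floor of 12. STD1 lies at 28.7 to 33.0 in carbon-limited cultures at 30 °C and at 135.5 to 256 in the other groups.

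Of the 12 genes of glucose repression, 1 rose and 1 fell in the cold under carbon limitation and 0 rose and 4 fell under nitrogen limitation, beside the same shares of all genes (13.1% and 12.6%, then 15.9% and 22.3%). MIG1 fell under both (-1.16, adjusted p = 0.00485, and -1.67, adjusted p = 0.000183). MIG2 rose at least 2.65-fold under carbon limitation (adjusted p = 0.00644) and was at least 7.99-fold higher under nitrogen limitation at 30 °C (adjusted p = 1.04e-05), and the first of these calls was lost with a floor of 50. At 12 °C MIG2 was also higher under nitrogen limitation (1.69, adjusted p = 0.0106), a call lost with only the 6 arrays compared (adjusted p = 0.243). MIG3, a further Mig1 relative, was at least 2.01-fold higher under nitrogen limitation at 30 °C (adjusted p = 0.00462). SIP1, a subunit of the Snf1 kinase complex, fell by 0.78 on the log2 scale in the cold under nitrogen limitation (adjusted p = 0.00902). Hexokinase 2, the main glucose kinase of cells grown on glucose and a partner in repression, rose in the cold under both limitations (HXK2, 0.77, adjusted p = 0.00313, and 0.96, adjusted p = 0.000374). Its isoenzyme gene HXK1 was lower under nitrogen limitation at 30 °C (-0.89, adjusted p = 0.000939) and at 12 °C (-0.67, adjusted p = 0.027). HXK1 fell in the cold under carbon limitation (-0.55, adjusted p = 0.0199) but did not pass under nitrogen limitation (-0.34). With only the 6 arrays compared, its 12 °C call (0.248) and its cold call (0.0558) were lost. Median scaling also lost the former (0.0747). Leaving out some single arrays lost either call (adjusted p = 0.0572 to 0.0933). EMI2, a glucokinase-like gene, was lower in the cold under nitrogen limitation (-0.63, adjusted p = 0.00539) and lower under nitrogen limitation at 12 °C (-0.75, adjusted p = 0.0138). The first call was lost after median scaling (-0.41, adjusted p = 0.052) and the second with only the 6 arrays compared (adjusted p = 0.145). EMI2 was also lower under nitrogen limitation at 30 °C (-0.55, adjusted p = 0.0168). This did not pass without carbon-limited or nitrogen-limited replicate 1 of that temperature (0.0752 and 0.0798).

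The maltose carriers MAL11 and MAL31 were the other tested sugar transporters with large changes. Signals of MAL11 were 1765 to 2012 and 221 to 605 under carbon limitation at 30 and 12 °C and 467 to 552 and 65.2 to 105 under nitrogen limitation. It fell 4.76-fold and 6.02-fold in the cold under carbon and nitrogen limitation (adjusted p = 2.58e-05 and 4.03e-06) and was lower under nitrogen limitation at both temperatures, at 12 °C not with only the 6 arrays compared (adjusted p = 0.145). MAL31 fell 2.18-fold and 2.25-fold in the cold (adjusted p = 0.000414 and 0.000194) and was 5.08-fold and 5.23-fold lower under nitrogen limitation at 30 and 12 °C. MPH2, an alpha-glucoside permease with signals of 8.2 to 25.5 near the floor, rose in the cold under carbon limitation (0.90, adjusted p = 0.00272). It also rose under nitrogen limitation (0.58, adjusted p = 0.0258). The latter call was lost on log2(signal + 1) (adjusted p = 0.0614) and with only the 6 arrays compared (0.0719). It was also lost without replicate 1 or 2 of the nitrogen-limited cultures at 12 °C (0.0577 and 0.122) or at 30 °C (0.0989 and 0.0837). The difference in temperature effect between limitations did not pass for MAL11 or MAL31 (-0.34 and -0.04).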

How the data were processed

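The authors deposited intensities on a linear scale, 1 per probe set, made with GCOS per the submitters' processing notes; version and scaling target: not given in the sources used here. Means trimmed by 2% at either end came to 150.1 on each of the 12 arrays, which shows scaling before deposit. Of 9335 probe sets, 6504 have 1 gene in the platform annotation, 328 several and 2503 none listed. The brightest probe set stood for each gene, and each of the 10 members had 1 of its own.

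Signals under 12 were raised to 12 and log2 was taken. Genes over 12 on fewer than 3 arrays (256 of 5656) were left out. Means of the 4 groups were fitted over all 12 arrays with limma 3.58.1 (lmFit, eBayes with trend) in R 4.3.3, with Benjamini-Hochberg adjustment over the 5400 genes tested and a threshold of 0.05; all adjusted p values come from it. The procedure was tested on simulated data. A fold against a group wholly under the floor is a bound ("at least"), and folds near the floor are understated. An exact two-sided permutation test of 3 against 3 cannot go below 0.1. The number of arrays limits the precision. Groups and replicate numbers come from the sample titles.

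Named genes were all 10 members; STD1, MTH1, RGT1, SNF3, RGT2 and HXK2; up to 2 genes each way per pathway list and contrast with the largest change; and up to 3 nearest profiles per member. Members and lists were chosen with earlier results of these data known. Protein and promoter sequences were not used here. Alternatives were other floors, pseudocounts, scalings, filters, fits, weights and left-out arrays.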

Additional observations from a re-analysis of the deposited data

Results flagged for a closer look

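The temperature effect differed between the limitations, as a test of the difference itself (nitrogen minus carbon limitation, limma, log2 scale), for 5 members and 1 regulator, and for HXT14, where it follows from the filter. Of all tested genes 2.91% had a positive and 4.54% a negative difference. The difference was -5.70 for HXT2 (adjusted p = 1.49e-08), which rose in the cold in carbon-limited and fell in nitrogen-limited cultures. For HXT4 it was -4.27 (adjusted p = 7.44e-08) and for STD1 -2.53 (adjusted p = 0.000186), 2 genes that were low in carbon-limited cultures at 30 °C alone. HXT3 had -1.42 (adjusted p = 0.00557) and HXT1 -1.38 (adjusted p = 0.0312), a call lost in 11 of 22 alternative settings. HXT5 had a positive difference of 1.84 (adjusted p = 0.00122), with carbon-limited cultures at 12 °C under the floor. HXT14 had 0.87 (adjusted p = 0.0158), but it was over the floor on 3 arrays of 1 group alone, and on log2(signal + 1) it had 1.33 (adjusted p = 0.134).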

How the results depend on the processing

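Of 45 values of the members (9 genes in 5 contrasts), 27 kept their direction and their side of the threshold in all alternatives run, out of 12 that left out 1 array and 11 others. Among these 27 are the values of HXT14 in each comparison between groups. They follow from the filter or compare groups wholly under the floor, so that they could hardly move. Counts of members here include HXT14. Leaving out 1 array gave 5 to 6 members changed in the cold under carbon and 5 to 7 under nitrogen limitation, 6 to 7 and 3 to 5 between limitations at 30 and 12 °C, and 5 to 8 with a temperature effect that differed. For the other glucose genes these ranges were 8 to 11, 8 to 14, 9 to 13, 4 to 6 and 1 to 2. Of all 5400 genes, 469 to 876 rose and 452 to 814 fell in the cold under carbon limitation. Under nitrogen limitation 656 to 946 rose and 922 to 1256 fell. Between limitations 503 to 940 were higher and 477 to 826 lower at 30 °C, and 48 to 115 and 78 to 320 at 12 °C. Differing temperature effects were 93 to 206 positive and 146 to 274 negative. Between limitations at 12 °C, 5 members became 3 with no filter and 1 with only the arrays compared, and 5 other genes became 1 in the latter fit. Over all genes that fit gave 1 higher and 3 lower, against 98 and 208. Median scaling gave 8 in place of 14 other genes in the cold under nitrogen limitation, and array weights 21 in place of 12 between limitations at 30 °C. Log2(signal + 1) and a floor of 50, which also raises the filter, each gave 2 in place of 1 other gene with a differing temperature effect. Over all genes, differing temperature effects were 157 positive and 245 negative, but 225 and 221 after quantile normalisation and 267 and 169 after median scaling. At 12 °C median scaling gave 158 higher and 140 lower between limitations. The cause of these shifts was not tested. With only the arrays of a contrast, the difference of temperature effects has no value.

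Signs turned in values that had not passed. HXT6 in the cold under carbon limitation was -0.016 after quantile normalisation. HXT7 there ranged from -0.152 to 0.052 with 1 array left out, and was above 0 without replicate 3 at 12 °C or at 30 °C. HXT4 between limitations at 12 °C ranged from -0.097 to 0.319, below 0 without carbon-limited replicate 1. STD1 ranged from -0.145 to 0.314 in the cold under nitrogen limitation, below 0 without replicate 2 or 3 at 12 °C, and from -0.106 to 0.353 between limitations at 12 °C, below 0 without carbon-limited replicate 1 or nitrogen-limited replicate 3.

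No pairing of the cultures by replicate number was seen, and shared runs or batches were not tested. Deviations of 18 same-numbered pairs correlated from -0.195 to 0.184, with 3 over 0.1, and those of 36 differently numbered pairs from -0.279 to 0.391, with 7 over 0.1. With the replicate number as a block, 5, 6, 6, 5 and 6 of the 9 members changed in the 5 contrasts, the counts without the block, and the calls of SNF3 in the cold under nitrogen limitation (-0.59, adjusted p = 0.0558) and of RGT2 at 30 °C (0.57, adjusted p = 0.0563) were lost. The SNF3 call, a fall of 0.59 (adjusted p = 0.0439), was lost in 16 settings in all. Signals near the floor limit HXT1, HXT8, HXT10 and HXT14.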
